A study of Mus musculus with 17 samples.

Results

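The genes described here are 10 genes of cellular iron handling, in distant tumors that were not ablated. They are the transferrin receptor Tfrc, the iron transporter Slc11a2, the ferrireductase Steap3, the ferritin chains Fth1 and Ftl1, the ferritinophagy receptor Ncoa4, the exporter Slc40a1, and the regulators Aco1, Ireb2 and Fbxl5. They were taken by gene name from the deposited table, and all 10 are among its 21931 genes. Tfrc was selected on its p-value between the groups, which was the smallest of all genes, so that its difference is a description and not a test. The other members were added as genes of the same process.

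MC38, a mouse colon cancer cell line, was injected subcutaneously into both flanks of wild-type C57BL/6J mice of 6 to 8 weeks. In the cryoablation group (n = 8 tumors), the tumor on 1 side was frozen on day 7 in 2 cycles, of 20 s each by the labels (the study's methods give a longer freeze), and the tumor of the other side was collected 5 days later. The control group (n = 9 tumors) carried the same cells on both sides and was sampled at the same labelled time. Bulk RNA sequencing gave between 13524899 and 17898672 counts on genes per tumor. The labels number the tumors but do not name the mice, so the p-values measure the spread between these tumors. In bulk tissue, fewer cells of a type and less RNA per cell cannot be told apart. The model is 1 cell line, and checked against 9 epithelial marker genes, 8 had counts, Cdx2, an intestinal transcription factor, was at 0 in all tumors, and the list summed to between 11.8 and 216 CPM (the count scaled to the library size after TMM normalization).

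Cells take up transferrin-bound iron through the transferrin receptor, reduce it in the endosome and pass it to the cytosol. Iron that is not used is stored in ferritin, a shell of heavy and light chains, and leaves the cell through ferroportin. The iron regulatory proteins, the products of Aco1 and Ireb2, bind stem-loops in mRNA called iron-responsive elements when iron is low. Binding in the 3′UTR keeps the Tfrc transcript from decay, and binding in the 5′UTR holds back translation of ferritin and ferroportin, which an RNA count does not show.

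The elements are printed because they are what Tfrc and the storage and export genes have in common in sequence. They were found in GENCODE M21 transcripts (GRCm38) as C, an arm of 5 bases, the loop CAGTGN, and a second arm of 5 bases that pairs with the first, G-T pairs allowed, on the sense strand only. Capitals mark the unpaired C and the loop, and T stands for U.
Tfrc element 1: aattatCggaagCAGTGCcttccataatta
Tfrc element 2: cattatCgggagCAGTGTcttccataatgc
Tfrc element 3: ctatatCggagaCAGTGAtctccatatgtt
Tfrc element 4: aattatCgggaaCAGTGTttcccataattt
Fth1 element 1: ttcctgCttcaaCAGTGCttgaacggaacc
Ftl1 element 1: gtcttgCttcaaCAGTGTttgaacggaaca
Slc40a1 element 1: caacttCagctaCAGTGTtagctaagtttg

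The 4 Tfrc elements lie on the + strand in the 3′UTR, at chr16:32631219-32631248, chr16:32631598-32631627, chr16:32631663-32631692 and chr16:32631710-32631739, within 521 bases. They are in 1 of 3 coding transcripts of the gene, which spans chr16:32608920-32632794. The Fth1 element is in the 5′UTR at chr19:9982732-9982761 (+ strand, 4 of 5 coding transcripts). The Ftl1 element is in the 5′UTR at chr7:45459778-45459807 (− strand, 1 of 2), and the Slc40a1 element in the 5′UTR at chr1:45925464-45925493 (− strand, 1 of 4). The Fth1 and Ftl1 windows share 26 of 30 bases. The pattern matched a UTR of 4 of 10 members, against 160 of 21901 coding genes (0.731%). For the other 6 members, Slc11a2 among them, these letters are not in the UTRs of the annotated transcripts.

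Tfrc, which brings transferrin-bound iron into the cell, had a higher mean level in the distant tumors of the cryoablation group, where all 8 tumors lay above the control median. In the control group its lowest, median and highest levels were 40.5, 81.3 and 102 CPM. In the cryoablation group they were 90.2, 142 and 171 CPM. The ranges overlapped, but 6 of 8 cryoablation tumors were above the highest control tumor and 7 of 9 control tumors were below the lowest cryoablation tumor. The means were 78.8 ± 19.4 CPM (SD, n = 9) and 131 ± 28.2 CPM (SD, n = 8), a log2 fold change of 0.74 (SE 0.17) or 1.67-fold in edgeR.

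These values chose the gene. Its unadjusted p of 0.000306 was the smallest of 13005 genes tested and its adjusted p was 0.728, while the next gene, Hic2, a transcriptional repressor, had 0.00141 at a log2 fold change of 0.51 (SE 0.13). By edgeR's quasi-likelihood test no gene had an adjusted p under 0.05 (0% of all genes tested), nor by DESeq2 or limma voom, and 639 genes had an unadjusted p under 0.05 (4.91%). Offsets for length and GC content put the log2 fold change of Tfrc at 0.86, and it was between 0.65 and 0.80 when single tumors were left out. In absolute size, 363 genes had a larger log2 fold change than Tfrc.

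**Figure D1:**
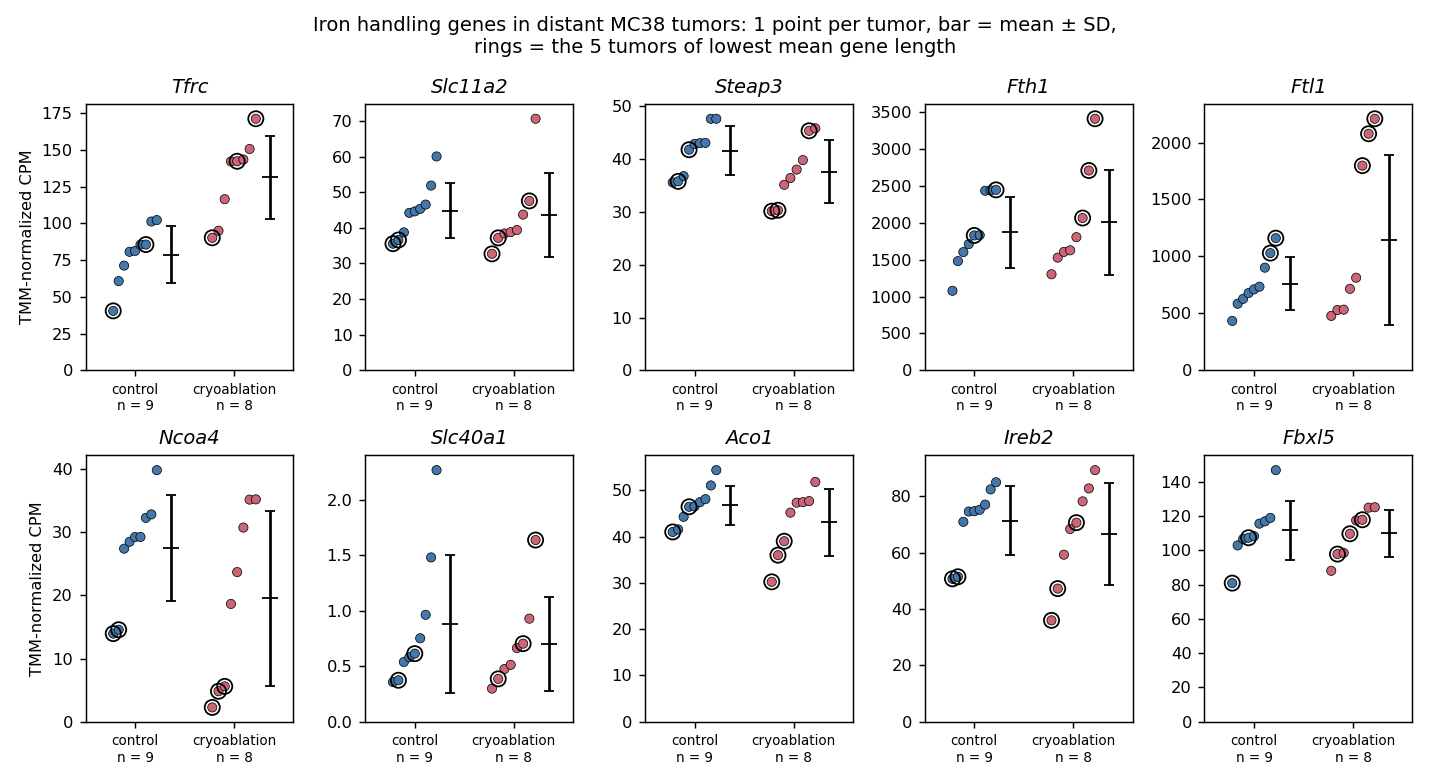
Levels of the 10 genes in TMM-normalized CPM (y axes from 0), with 1 point per tumor, the mean ± SD as a bar, and rings on the 5 tumors of lowest mean gene length. The groups overlap in Tfrc, which was chosen for its difference, and the ringed tumors are the highest in Ftl1 and the lowest in Ncoa4.

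Between the groups, some markers of red blood cells differed in the same direction as Tfrc. Immature red cells carry much transferrin receptor. Of 15 erythroid genes, 14 are in the table and 5 were tested, of which 4 were higher in the cryoablation group at an unadjusted p under 0.05 (Hba-a1, Hbb-bs, Hbb-bt and Alas2), and none was lower. Over all genes 4.91% passed that threshold, 487 of them higher and 152 lower. The summed level of the list ranged from 12.4 to 81.8 CPM in the control group (median 16.4) and from 30.04 to 185 CPM in the cryoablation group (median 55.1). Car1 was at 0 in all tumors. Within the cryoablation group, replicate 2 had the highest Tfrc level (171 CPM) and the second highest erythroid sum (150 CPM). Replicates 6 and 7, with 95.01 and 116.5 CPM of Tfrc, had the lowest sums (30.04 and 31.3 CPM). In contrast, replicate 5 had the highest sum (185 CPM) and the lowest Tfrc level (90.2 CPM), and replicate 8, with 151 CPM of Tfrc, had a sum of 38.5 CPM. Of the control tumors, replicate 1 had the lowest Tfrc level (40.5 CPM) at a sum of 42.0 CPM. Control replicates 3 and 4 had the highest Tfrc levels (102 and 101 CPM), at sums of 15.3 and 45.3 CPM. The part of these cells in the Tfrc difference was not tested.

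Proliferation genes, which often accompany Tfrc in dividing cells, spanned 1642 to 2556 CPM in the control group and 2016 to 2424 CPM in the cryoablation group, and 0 of 10 had an unadjusted p under 0.05. The macrophage list spanned 1020 to 2896 and 833 to 3643 CPM, with 0 of 11 tested genes higher and 1 lower. Adipocyte genes had a median sum of 16.3 CPM in the control group and 78.7 CPM in the cryoablation group, with 2 of 5 tested genes higher. For neutrophil genes the medians were 14.6 and 25.9 CPM, with 2 of 4 higher. T cell (0 of 6), endothelial (0 of 5) and skeletal muscle genes (0 of 4) had none at that threshold, and no hepatocyte gene passed the filter, the list reaching 0.23 CPM at most. Their part in the result was not tested either.

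**Figure D2:**
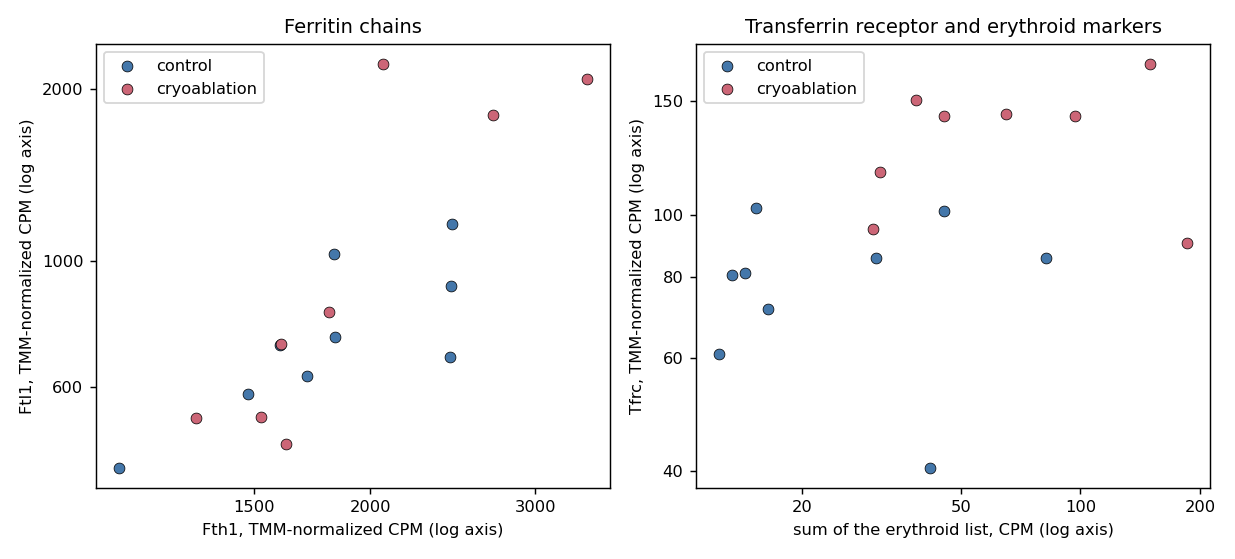
Left, Ftl1 against Fth1, and right, Tfrc against the sum of the erythroid list, in TMM-normalized CPM on log axes, with 1 point per tumor. The ferritin chains climb together in both groups (Pearson r 0.80 with group means removed), and in the cryoablation group the tumors with the highest erythroid sums, 150 and 185 CPM, have the highest and the lowest Tfrc level, 171 and 90.2 CPM.

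For the other 2 genes of iron entry no difference between the groups passed the test. Slc11a2, which moves ferrous iron across the endosomal and plasma membranes, was lowest, in the middle and highest at 35.6, 44.6 and 60.1 CPM in the control group and at 32.7, 39.1 and 70.6 CPM in the cryoablation group. The groups overlapped throughout, and 6 of 8 cryoablation tumors had less than the control median. The log2 fold change was −0.04 (SE 0.14, 95% interval −0.32 to 0.24, adjusted p = 0.912), and the two-sided exact permutation p over tumors was 0.673.

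Steap3, the endosomal ferrireductase, was lowest, in the middle and highest at 35.6, 42.8 and 47.6 CPM in the control group and at 30.1, 37.2 and 45.8 CPM in the cryoablation group, where 6 of 8 tumors lay below the control median. The log2 fold change was −0.14 (SE 0.10, 95% interval −0.34 to 0.06), with an adjusted p of 0.734 and an exact permutation p of 0.134. It varied little within the control group, with a coefficient of variation of 11.2%, against 24.6% for Tfrc.

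Ferritin made up 0.271% ± 0.0625 (SD, n = 9) of all counts in the control group and 0.291% ± 0.0885 (SD, n = 8) in the cryoablation group. Per gene length, Ftl1 (671 FPKM, the mean of 17 tumors) and Fth1 (549 FPKM) were the most abundant members, and Ftl1 was above Fth1 in 12 of 17 tumors. Reads of these genes may be shared with near-identical copies: Ftl1-ps1 held 106 counts over 16 tumors and Fthl17e 7 counts, and how such reads were assigned is not given in the sources used here.

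Fth1, the heavy chain with the ferroxidase site, was lowest, in the middle and highest at 1078, 1828 and 2445 CPM in the control group and at 1302, 1715 and 3409 CPM in the cryoablation group. The groups overlapped, and 5 of 8 cryoablation tumors were below the control median. The log2 fold change was 0.10 (SE 0.20, 95% interval −0.29 to 0.49, adjusted p = 0.854, exact permutation p = 0.720).

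Ftl1, the light chain, was lowest, in the middle and highest at 434, 711 and 1161 CPM in the control group and at 478, 764 and 2209 CPM in the cryoablation group. Of the cryoablation tumors, 3 were above every control tumor and the other 5 lay within the control range. Its log2 fold change of 0.59 (SE 0.32, 95% interval −0.05 to 1.22) had an adjusted p of 0.728 and an exact permutation p of 0.300. Its unadjusted edgeR p was 0.0854, and between 0.0397 and 0.0454 without cryoablation replicate 3, 6 or 7. Without cryoablation replicate 2, 4 or 5 the edgeR p was between 0.176 and 0.239, at log2 fold changes of 0.38 to 0.46.

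The 5 tumors with the most Ftl1 were those whose counts lay on the shortest genes. The mean gene length weighted by counts, a property of the whole library, was 4198 to 4809 bases in 3 cryoablation tumors (replicates 2, 4 and 5) and 2 control tumors (replicates 1 and 5), and 5095 to 5787 bases in the other 12. Mitochondrial genes took 0.880% to 1.26% of the counts in these 5 tumors and 1.23% to 1.59% in the other 12, and the total counts of the 5 were between 13524899 and 14468018. Macrophage genes summed to 1912 to 3643 CPM in the 5 tumors, which were 5 of the 6 highest sums of all, and the epithelial list had its 3 highest sums in the 3 cryoablation tumors among them (142 to 216 CPM). The erythroid list summed to 42.0 to 185 CPM in the 5 tumors and to at most 64.8 CPM in the other 12. The part of these properties in the results was not tested. Ftl1 was 1029 to 2209 CPM in these 5 tumors and 434 to 901 CPM in the other 12. Without them its log2 fold change was −0.12 (SE 0.17), and that of Fth1 −0.19 (SE 0.18), against 0.64 (SE 0.14) for Tfrc. Length and GC offsets gave 0.22 (SE 0.17) for Ftl1, and limma voom 0.15 (SE 0.19).

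The ratio of heavy to light chain did not differ beyond its spread. The log2 ratio of Fth1 to Ftl1 in CPM was 1.31 ± 0.28 (SD, n = 9) in the control group and 1.01 ± 0.59 (SD, n = 8) in the cryoablation group, a difference of −0.29 with a two-sided exact permutation p of 0.206. The difference was −0.14 without cryoablation replicate 4 and −0.03 without the 5 tumors of lowest mean gene length. The lowest, median and highest Fth1 counts per Ftl1 count were 1.78, 2.50 and 3.59 in the control group and 0.934, 2.23 and 3.40 in the cryoablation group. The 3 lowest cryoablation ratios (replicates 2, 4 and 5) belonged to the tumors of low mean gene length.

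Ncoa4, which hands ferritin to the autophagosome, showed the widest spread of the members with over 100 counts on average. It was lowest, in the middle and highest at 13.9, 29.2 and 39.8 CPM in the control group and at 2.26, 21.2 and 35.2 CPM in the cryoablation group. The same 5 tumors held the 5 lowest levels, from 2.26 to 14.6 CPM against 18.6 to 39.8 CPM in the other 12. Its log2 fold change of −0.49 (SE 0.43, 95% interval −1.33 to 0.35) had an adjusted p of 0.748 and an exact permutation p of 0.105, and it was −0.12 (SE 0.15) without these tumors.

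**Figure D3:**
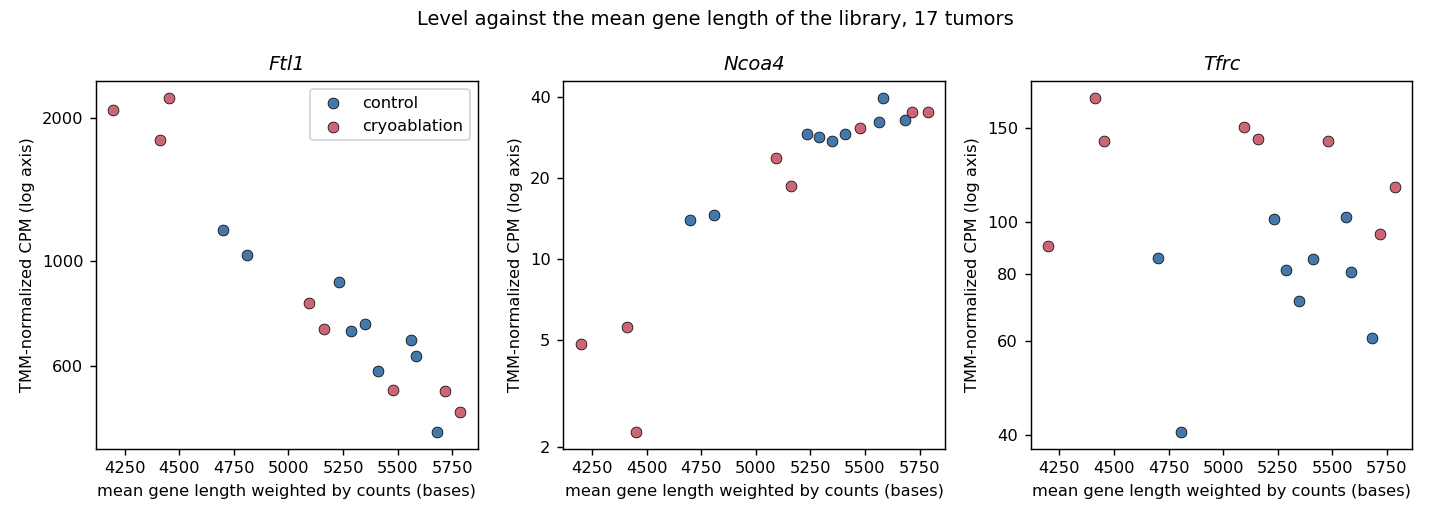
Levels of Ftl1, Ncoa4 and Tfrc in TMM-normalized CPM (log axes) against the mean gene length of each library, weighted by its counts (bases), for 17 tumors. Ftl1 declines and Ncoa4 climbs with the mean gene length in both groups, and at 4198 to 4809 bases Ncoa4 is at most 14.6 CPM.

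The relation to mean gene length was also present among the other 12 tumors, with group means removed. For Ireb2, Pearson r was 0.91 (Spearman rho 0.91, permutation p 0.0004 and 0.00241, adjusted over 10 members 0.0021 and 0.0081). For Ncoa4, r was 0.86 and rho 0.87 (permutation p 0.00287 and 0.00243, adjusted 0.00957 and 0.0081), and for Ftl1 they were −0.85 and −0.90 (permutation p 0.00042 and 0.00029, adjusted 0.0021 and 0.0029). Without the 2 tumors farthest from the median length, r was 0.88, 0.85 and −0.79 in that order. By length in the table, Ireb2 (9479 bases), Ncoa4 (9365 bases) and Ftl1 (1340 bases) had the values above, while Fbxl5 (9740 bases) had r 0.62 (adjusted permutation p 0.145) and Slc40a1 (9000 bases) 0.03 (adjusted permutation p 0.907). Slc11a2 (6354 bases) had r 0.27 (adjusted permutation p 0.697). For Tfrc (6185 bases), r was −0.62 and rho −0.62 (permutation p 0.0421 and 0.0383, adjusted 0.105 and 0.0958), and r was −0.59 without 2 tumors (permutation p 0.123). This relation was looked for after the data were seen.

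Slc40a1, ferroportin, the exporter of iron, had few counts, with 5 to 35 counts in the control tumors and 4 to 19 in the cryoablation tumors, and it did not pass the filter on low counts. Its lowest, median and highest levels were 0.36, 0.61 and 2.26 CPM in the control group and 0.30, 0.59 and 1.64 CPM in the cryoablation group. The groups overlapped, with 4 of 8 cryoablation tumors above the control median. The difference in mean log2 CPM was −0.22, with an exact permutation p of 0.527.

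No difference in the 3 regulators passed the test. Aco1, whose product IRP1 is an aconitase when it carries an iron-sulfur cluster, was lowest, in the middle and highest at 41.0, 46.5 and 54.4 CPM in the control group and at 30.2, 46.3 and 51.8 CPM in the cryoablation group. With a log2 fold change of −0.12 (SE 0.10, 95% interval −0.32 to 0.08), Aco1 had an adjusted p of 0.748 and an exact permutation p of 0.203. The 3 lowest levels of Aco1 in 17 tumors, 30.2, 35.99 and 39.0 CPM, belonged to cryoablation replicates 4, 5 and 2.

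Ireb2, which encodes IRP2, was lowest, in the middle and highest at 50.7, 74.7 and 85.0 CPM in the control group and at 35.99, 69.5 and 89.3 CPM in the cryoablation group. The fitted log2 fold change was −0.10 (SE 0.16, 95% interval −0.42 to 0.21, adjusted p = 0.823, exact permutation p = 0.464). The groups overlapped over nearly the whole range.

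Fbxl5, the iron-sensing subunit that marks IRP2 for degradation, was lowest, in the middle and highest at 80.9, 108 and 147 CPM in the control group and at 88.1, 114 and 125 CPM in the cryoablation group. All cryoablation tumors lay within the control range, and 5 of 8 were above the control median. The fitted log2 fold change was −0.02 (SE 0.10, 95% interval −0.23 to 0.18, adjusted p = 0.940, exact permutation p = 0.876).

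Of the 8 members other than Tfrc that were tested, 0 had an unadjusted p under 0.05, beside 4.91% of all genes, so that the count is near the background. Of these 8, 2 had a log2 fold change above 0 and 6 below, with a median of −0.07 against −0.01 over all genes. These directions are not stable for each gene. Length and GC offsets gave log2 fold changes above 0 for Slc11a2 (0.05) and Fbxl5 (0.12), and limma voom gave 0.02 for Aco1 and −0.00 for Fth1.

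**Figure D4:**
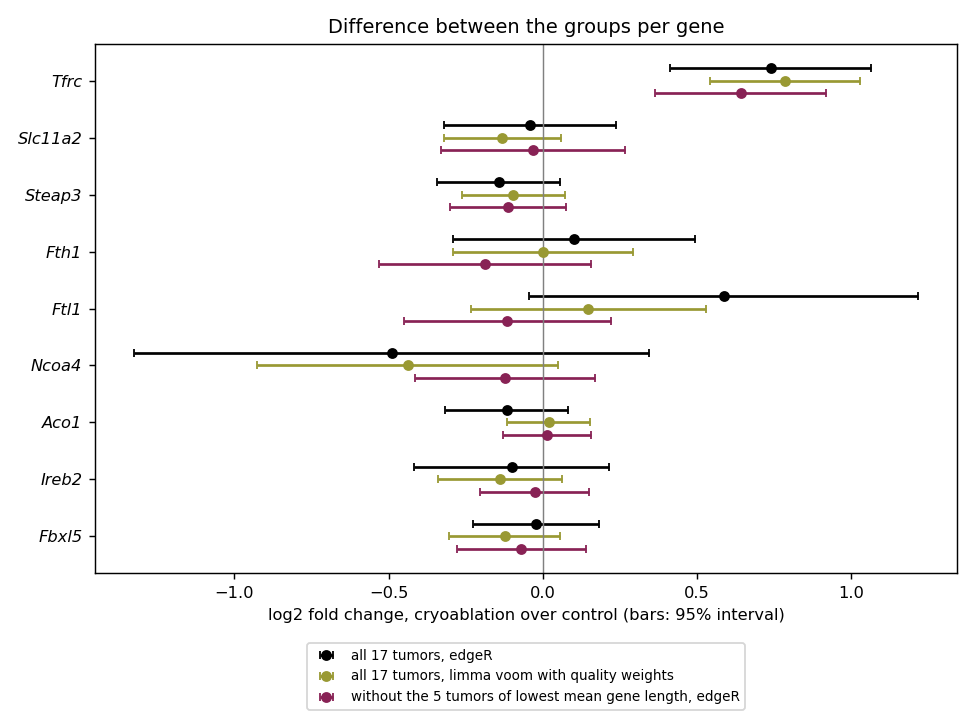
Log2 fold changes of cryoablation over control with 95% intervals for the 9 genes tested, from edgeR with 17 tumors, from limma voom with quality weights, and from edgeR without the 5 tumors of lowest mean gene length. Tfrc was chosen for this difference, and Ftl1 moves from 0.59 to −0.12.

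Per gene length, the members formed 4 levels. Both ferritin chains were above Tfrc (16.7 ± 5.56 FPKM, SD, n = 17) in all 17 tumors. Tfrc was above Fbxl5 (11.5 FPKM) in 14 tumors, Fbxl5 above Aco1 (10.1 FPKM) in 13, and Aco1 above Ireb2 (7.44 FPKM) in 16. Ireb2, Slc11a2 (7.05 FPKM) and Steap3 (7.00 FPKM) were not ordered beyond their spread, since Ireb2 was above Slc11a2 in 9 of 17 tumors and Slc11a2 above Steap3 in 6. Below them, Ncoa4 (2.65 FPKM) was above Slc40a1 (0.0892 FPKM) in all 17.

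Across tumors, 5 relations between members were compared on log2 CPM with group means removed. Fth1 and Ftl1 varied together, with Pearson r 0.80 (permutation p 9e-05, adjusted over 5 relations 0.00045) and Spearman rho 0.87 (permutation p 1e-05, the smallest that 100000 permutations can give, adjusted 5e-05). Within the groups r was 0.78 in the control tumors (exact p 0.0137) and 0.86 in the cryoablation tumors (exact p 0.00449). It was 0.73 without the 2 tumors farthest from the median of Fth1 (permutation p 0.0027) and 0.75 without the 5 tumors of low mean gene length (permutation p 0.00606), and both genes share the libraries' depth and composition.

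The 4 other relations did not pass the adjusted threshold. Tfrc with Slc11a2 had r 0.37 and rho 0.34 (permutation p 0.143 and 0.192, adjusted 0.267 and 0.320), and r was 0.10 without the 2 tumors farthest from the median of Tfrc (permutation p 0.723). Within the control group r was 0.70 (exact p 0.0368) and within the cryoablation group 0.06 (exact p 0.900). Tfrc with Steap3 had r 0.14 and rho 0.14 (permutation p 0.600 and 0.594, adjusted 0.600 and 0.594) and 0.17 without 2 tumors (0.60 without the 5 tumors of low mean gene length, permutation p 0.0572), with 0.75 in the control group (exact p 0.0104) and −0.48 in the cryoablation group (exact p 0.232). The difference between the groups in these relations was not tested.

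Aco1 with Ireb2 had r 0.42 and rho 0.41 (permutation p 0.161 and 0.133, adjusted 0.267 and 0.320), with 0.40 and 0.43 within the control and cryoablation groups (exact p 0.296 and 0.286) and 0.48 without 2 tumors. It turned to −0.12 without the 5 tumors of low mean gene length. Fth1 with Slc40a1 had r 0.32 and rho 0.26 (permutation p 0.213 and 0.317, adjusted 0.267 and 0.397), with 0.50 and 0.13 within the groups (exact p 0.174 and 0.750). Without 2 tumors it was 0.55 (permutation p 0.0413).

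Among 9723 tested genes with a mean of at least 10 CPM, the 5 with the highest Pearson r with Tfrc over 17 tumors, group means removed, were Clec7a (0.80), Arg1 (0.78), Rbm18 (0.76), Cd84 (0.76) and Aim2 (0.76). Clec7a is the beta-glucan receptor Dectin-1 of myeloid cells, Arg1 the arginase of macrophages and liver, Cd84 a receptor of the SLAM family on leukocytes, and Aim2 a sensor of cytosolic DNA. They were picked for this r from 9723 genes, so that no p is given. With group means kept in, r was 0.41, 0.46, 0.57, 0.32 and 0.48 in the same order, and the log2 fold changes of these genes lay between −0.33 and 0.01. Without control replicate 1, the tumor of lowest Tfrc, r was 0.68, 0.70, 0.66, 0.62 and 0.58. Of the tested members, Fbxl5 had the highest r with Tfrc (0.45), at rank 409, and Ftl1 the lowest (0.04). Slc40a1, which did not pass the filter on low counts, was not compared.

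Beyond these members, 55 further genes of iron and heme handling were listed, of which all 55 are in the table and 47 were tested. With an unadjusted p under 0.05, 3 were higher in the cryoablation group (6.38% of those tested, beside 4.91% of all genes), 0 were lower, and 0 had an adjusted p under 0.05. The median log2 fold change was −0.06, with 19 genes above 0 and 28 below. Of the 3, Alas2, Lcn2 and Bdh2, all 3 had an unadjusted p under 0.05 by DESeq2 as well (5 listed genes in all), 2 by limma voom and with the replicate block, both without Lcn2, and 1, Alas2, without the 5 tumors of lowest mean gene length. They were picked by the edgeR p on the same tumors, so their other p-values, permutation p included, are descriptions and not separate support. Other listed genes passed that threshold in these alternatives. Slc39a8, at a log2 fold change of −0.55 in edgeR, did so in each of them. Cd163 (−1.23) did so without the 5 tumors, Hp (0.94) by DESeq2, and Cp (0.35) by limma voom and without the 5 tumors.

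Alas2, the first enzyme of heme synthesis in red cell precursors, is also in the erythroid list. It was lowest, in the middle and highest at 0.46, 0.83 and 1.46 CPM in the control group and at 0.70, 1.4997 and 1.97 CPM in the cryoablation group, on 8 to 35 counts. The ranges overlapped, with 7 of 8 cryoablation tumors above the control median. The log2 fold change of Alas2 was 0.71 (SE 0.25), with an adjusted p of 0.728 and an exact permutation p of 0.0140.

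Lcn2, the siderophore-binding protein lipocalin 2 of neutrophils and epithelia, was lowest, in the middle and highest at 1.97, 3.44 and 7.51 CPM in the control group and at 0.24, 8.75 and 33.6 CPM in the cryoablation group, which thus spanned the control range. Its log2 fold change of 1.45 (SE 0.53) had an adjusted p of 0.728 and an exact permutation p of 0.296, and limma voom gave −0.33 (SE 0.67). It was 0.97 (SE 0.51) with the replicate block and 0.90 (SE 0.48) without cryoablation replicate 7. Bdh2, which makes the mammalian siderophore, was lowest, in the middle and highest at 0.66, 1.61 and 3.14 CPM in the control group and at 1.02, 3.09 and 6.33 CPM in the cryoablation group. The log2 fold change of Bdh2 was 0.88 (SE 0.36, adjusted p = 0.728, exact permutation p = 0.0760), and 0.36 (SE 0.35) without the 5 tumors of lowest mean gene length.

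Of the other listed genes, the ligand Trf, the transferrin itself, had means of 76.1 and 70.5 CPM in the control and cryoablation groups, and the second transferrin receptor Tfr2 had 1.53 and 1.43 CPM. Hmox1, the inducible heme oxygenase that frees iron from heme, had 103 and 72.7 CPM at a log2 fold change of −0.50 (SE 0.36, adjusted p = 0.734). Hamp, which encodes hepcidin, the hormone that closes ferroportin, had at most 3 counts in any tumor.

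**Figure D5:**
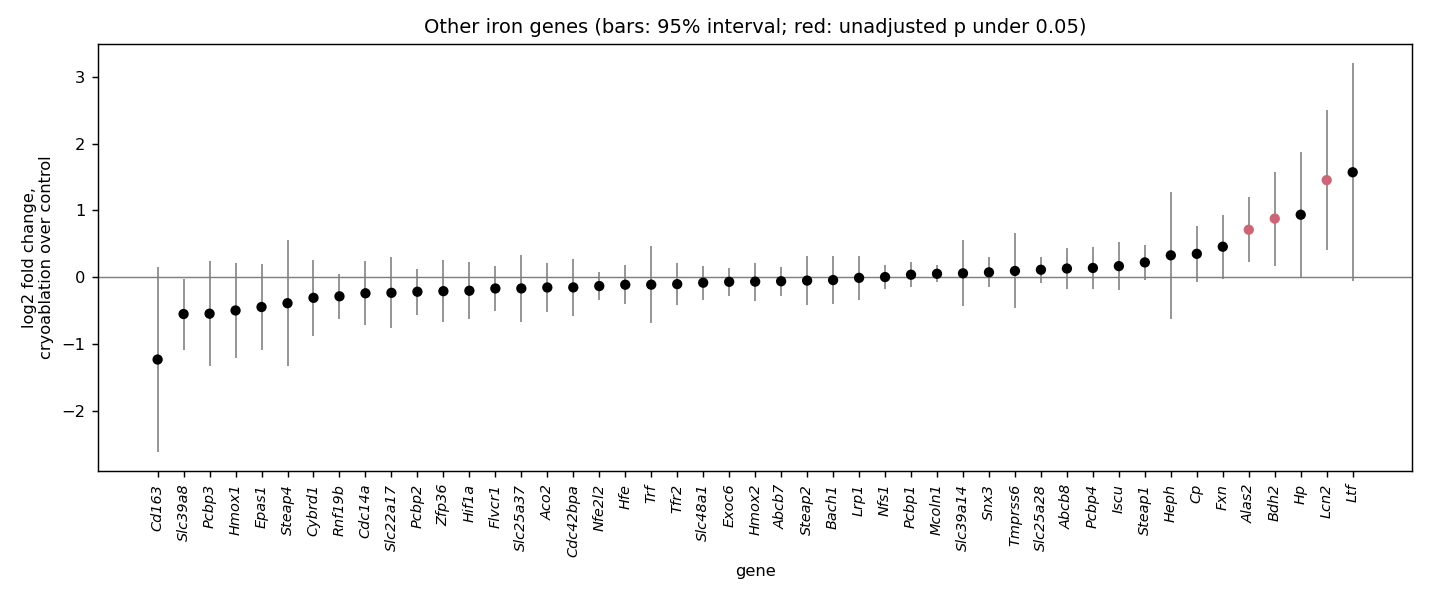
Log2 fold changes of cryoablation over control with 95% intervals for the 47 tested genes of the wider iron list, in order of size, with genes of unadjusted p under 0.05 in red. Alas2 (0.71), Bdh2 (0.88) and Lcn2 (1.45) are red, and 28 of 47 genes lie below 0.

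Genes that share the element pattern with the members were also compared. Of the tested genes with a match in a 5′UTR, 4 of 26 had an unadjusted p under 0.05 (15.4%, beside 4.91% of all genes), at a median log2 fold change of 0.04. Named after their values were seen, they were Alas2 (0.71), Egfl7 (0.59), Pdgfa (0.54) and Nfib (0.36), and Alas2 is also the red cell gene above. Of those with a match in a 3′UTR, Tfrc left out, 4 of 100 did, at a median log2 fold change of −0.05, and these were Gja5, Kif26b, Pex11a and Zbtb20. A match is a description of the letters and not a site shown to bind.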

How the data were processed

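Bulk RNA sequencing of 17 distant MC38 tumors (9 control, 8 cryoablation) was analysed, with groups from the deposited labels. The text of the study gives the sizes of the groups the other way round, so every direction here rests on the labels. The authors captured mRNA on beads and sequenced it on a NovaSeq platform. The submitters' processing notes name GRCm38 and mm10, but gene positions equal those of GENCODE M21 for 499 of 21827 shared genes, so the table's positions were not used. Aligner, counter and strandedness are not given in the sources used here. The authors deposited a read count per gene and tumor, not normalized, and FPKM, which equal the count divided by gene length and total count for 100% of values above 0 (relative tolerance 1e-06). FPKM served only to compare genes.

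Counts were tested with edgeR 4.0.16 in R 4.3.3 (TMM, filterByExpr, quasi-likelihood F test on the group alone, Benjamini-Hochberg over 13005 genes), and the SE is the log2 fold change over the square root of F. The 95% intervals are the normal interval from the SE. Log2 CPM (prior count 2) of single genes was compared by two-sided exact permutation over all 24310 groupings, and correlations by 100000 permutations within groups. The genes named by rule are the members, the 5 genes most like Tfrc, the listed iron genes with an unadjusted p under 0.05, and the gene with the second smallest p. Trf, Tfr2, Hmox1 and Hamp were named outside this rule, whatever their p. Other named genes are markers, copies of ferritin genes, genes with the element pattern, or listed iron genes that passed only in an alternative. Members, lists and tests were chosen with earlier results of these data known. The edgeR test was tried on simulated counts, with differences larger than those of the members here. Alternatives were DESeq2 1.42.0, limma 3.58.1 voom with quality weights, other normalization and filters, offsets for length and GC content, a replicate block, leaving out each tumor and, added after the data were seen, leaving out the 5 tumors of lowest mean gene length. A gene with 3 counts or fewer was taken as not detected. Protein sequences and the flow cytometry, proteomics and human data were not analysed here.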

Additional observations from a re-analysis of the deposited data

How the results depend on the processing

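No gene had an adjusted p under 0.05 in any alternative run. The count of genes with an unadjusted p under 0.05 was 639, against 1024 by DESeq2, 1312 by limma voom and 992 without a filter on low counts, and it lay between 252 (without cryoablation replicate 2) and 1388 (without cryoablation replicate 3) when single tumors were left out, moving by over 1.5 times in 13 of 17 cases. For the wider iron list it was 3, against 5 by DESeq2 and between 2 (without cryoablation replicate 2) and 6 (without cryoablation replicate 7) with a tumor left out. The sign of Tfrc, chosen on these values, is no sign of stability. Log2 fold changes of the opposite sign were 0.0499 for Slc11a2 and 0.12 for Fbxl5 with length and GC offsets; −0.000725 for Fth1, 0.0183 for Aco1 and −0.33 for Lcn2 by limma voom; and −0.19 for Fth1, −0.12 for Ftl1 and 0.0126 for Aco1 without the 5 tumors of lowest mean gene length. With single tumors left out, Slc11a2 ranged from −0.182 to 0.0147, Fth1 from −0.0526 to 0.162 and Fbxl5 from −0.0701 to 0.0297. The cause was not tested.

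The correlation of Tfrc with Steap3 was −0.19 without subtraction of group means, −0.00677 with the replicate block, and between −0.0776 (without control replicate 1) and 0.34 with a tumor left out. Aco1 with Ireb2 was −0.12 without the 5 tumors of low mean gene length. With a tumor left out, Aco1 with Ireb2 ranged from 0.29 to 0.67 (without cryoablation replicate 4), Tfrc with Slc11a2 from 0.27 to 0.62 (without cryoablation replicate 7) and Fth1 with Slc40a1 from 0.20 to 0.53 (without cryoablation replicate 5), the highest value having an unadjusted permutation p under 0.05 in each case. The ferritin ratio kept its sign and its side of the threshold in all alternatives, between −0.40 and −0.14 with a tumor left out and at −0.03 without the 5 tumors. Bdh2 had an unadjusted p of 0.0601 without cryoablation replicate 2 and 0.0718 without replicate 4.

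Replicate numbers are shared by the groups, and same-numbered tumors deviated together (correlation over 0.1) in 4 of 8 pairs, from −0.51 to 0.64. Whether such tumors share more than a number was not tested. With the replicate block over 8 pairs, 439 genes had an unadjusted p under 0.05, Tfrc had a log2 fold change of 0.75, Ftl1 0.36 and Ncoa4 −0.81, and the ferritin ratio differed by −0.31 (exact p 0.219). Of 8 control tumors, 2 correlated best with their own number. Slc40a1 rests on 4 to 35 counts per tumor, which limits its precision.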

Other observations

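Of 22 groups of values checked for a tumor apart from its group (Dixon's test on the 10 genes and the ferritin ratio), 0 had one, where chance gives about 1 in 20.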
